A study of Mus musculus with 7 samples.

Results

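The genes described here are the working parts of the Wnt signalling pathway other than its ligands and Frizzled receptors, in pancreatic islets of mice with and without Wnt4 in β-cells. They were chosen from a fixed list of 42 genes: 2 for Wnt secretion, 6 co-receptors and alternative receptors, 4 R-spondin receptors and Frizzled ligases, 9 cytoplasmic components, 6 nuclear factors, 7 targets and feedback regulators and 8 secreted inhibitors. Genes were picked by name and not by a measured value, but with earlier results of these data known. All 42 were found by accession among the 56605 probes of the array, which carries 22911 named genes, and each was represented by its brightest probe. Testing needed a call of well above background by the scanner software on 3 or more of 7 arrays, which left 32 of the 42 genes and 26151 probes in all.

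Islets of 3 control and 4 Wnt4βKO mice, 7 in all, were hybridised, 1 mouse to an array with 1 colour. The paper states that each group began with 4 samples and that 1 control was excluded after failing quality tests. Values given for single arrays stand in the order control replicates 2, 3, 4, then Wnt4βKO replicates 1, 2, 3, 4. The Wnt4βKO mice carried Pdx1CreER, a tamoxifen-inducible Cre under the Pdx1 promoter, and were homozygous for a floxed Wnt4 allele (Wnt4tm1Svo). The paper describes the Wnt4βKO mice of the array experiment as male. Controls were littermates with the same floxed alleles and no Cre, and both groups received tamoxifen by gavage in 2 doses between 4 and 5 weeks of age, so loss of Wnt4 and presence of active Cre cannot be told apart. Islets were picked by hand from the collagenase-digested pancreas at 7 weeks, so they also hold α-cells, δ-cells, vessels and exocrine remnants.

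In canonical Wnt signalling, a ligand brought to the surface by Porcn and Wls binds a Frizzled with Lrp5 or Lrp6, and Dishevelled proteins then inactivate the complex of Axin, Apc, casein kinase and glycogen synthase kinase that otherwise marks β-catenin for destruction. β-catenin then enters the nucleus and works with Tcf and Lef factors on targets such as Axin2, Nkd1, Sp5, Lgr5 and Rnf43, several of which feed back to limit the signal. WNT4 can also act through β-catenin-independent branches that use Ror, Ryk and Ptk7 receptors and calcium. Tcf7l2 is known for its link to diabetes risk and to islet function.

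The Tcf and Lef factors bind sites close to CTTTGAT or CTTTGTT. Promoters to show were taken only from genes of the list with a match to either motif. Of these, that of Sp5 is shown because Sp5 is one of the most direct β-catenin targets on the list. That of Dkk1 is shown because Dkk1 is a target that encodes an inhibitor. Both are RefSeq sequences of build GRCm38.p6, upstream of the annotated start and read 5′ to 3′ on the strand of the gene, with each match to either motif, on either strand, in capitals. The 250 bases of Sp5 lie at chr2:70474673-70474922 on the plus strand and the 150 bases of Dkk1 at chr19:30549497-30549646 on the minus strand.
Sp5: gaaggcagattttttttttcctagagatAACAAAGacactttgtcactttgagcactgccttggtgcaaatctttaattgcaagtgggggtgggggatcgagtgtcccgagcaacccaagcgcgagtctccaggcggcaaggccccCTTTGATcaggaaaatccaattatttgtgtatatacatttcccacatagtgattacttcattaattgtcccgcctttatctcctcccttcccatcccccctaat
Dkk1: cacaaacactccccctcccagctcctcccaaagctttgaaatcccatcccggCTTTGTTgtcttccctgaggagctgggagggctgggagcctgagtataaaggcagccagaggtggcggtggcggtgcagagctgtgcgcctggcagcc

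Sp5 held CTTTGAT at -104 and, on the other strand, CTTTGTT at -222, counted from the base before the start as -1 to the first printed base of the match, and Dkk1 held CTTTGTT at -98. Promoter windows of 250 bases before to 50 after the start were listed for 29 of the 42 genes. A match stood in the window of 3 of these 29 genes, the third being Tcf7l2 at an internal start, which is 10.3%, against 10.6% of all 27025 genes with a window. The 2 motifs do not overlap each other, and a match is a description of the letters, not a binding site.

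Wnt4 itself is the check of the labels. Its probe (A_66_P139703) gave log2 signals of 11.56, 11.17 and 11.78 on the controls and of 11.30, 10.80, 11.04 and 10.92 on the Wnt4βKO arrays. The difference was -0.49 ± 0.17 (SE), or 71.3% of control, with an unadjusted limma p of 0.0232 and an adjusted p of 0.651. The groups overlapped in Wnt4βKO replicate 1 and control replicate 3, and leaving out an array took the unadjusted p to 0.0668 for control replicate 2, 0.0863 for control replicate 4, and 0.0574 and 0.0542 for Wnt4βKO replicates 2 and 4. Where this probe lies relative to the floxed part of the gene was not determined. Fewer cells of a type and less RNA per cell cannot be told apart in such bulk samples. The β-cell markers were bright in both groups, with array means over 10 genes of 11.61 to 11.74 in control and 11.44 to 11.68 in Wnt4βKO islets. The 10 genes did not move as one: the glucose transporter gene Slc2a2 fell to 34.5% of control (adjusted limma p of 0.00877), and Ins1 was higher by 0.29 (adjusted 0.632), both with groups that did not overlap. Quantile normalization sets values by rank, and Ins1 lay among the brightest probes, with 15.26 on both control replicates 2 and 3. Its difference is therefore one of rank among such probes. The means of 13 acinar genes were 13.30 to 13.54 in control and 12.37 to 13.20 in Wnt4βKO islets, so that every Wnt4βKO array lay below every control array, and 11 of the 13 genes were lower. The part of these exocrine genes in the differences below was not tested. A fit with their mean as a covariate was run, but that mean separates the groups, so the fit cannot part it from genotype. With it, 2.57% of all tested probes had an unadjusted limma p under 0.05, against 6.96% without it.

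Which parts of the pathway could be measured in these islets differed by role. All 9 cytoplasmic components, all 6 co-receptors and both secretion genes passed the filter, as did 5 of 6 nuclear factors, 3 of 4 R-spondin receptors and ligases, 4 of 7 targets and 3 of 8 secreted inhibitors. The 10 genes that did not pass were Axin2, Nkd1 and Sp5 among the targets, Lgr5, the nuclear factor Tcf7l1, and the inhibitors Dkk1, Dkk2, Sfrp1, Sfrp2 and Wif1. Sfrp1 was well above background on 1 array, of a control, and the other 9 on no array of either group. Of the 12 genes on the list that are usual readouts of β-catenin activity (Axin2, Nkd1, Nkd2, Notum, Sp5, Ccnd1, Myc, Lgr5, Rnf43, Znrf3, Lef1 and Tcf7), 4 were therefore not well above background on any array. Their signals give only a bound, so no fold is stated for them.

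**Figure D1:**
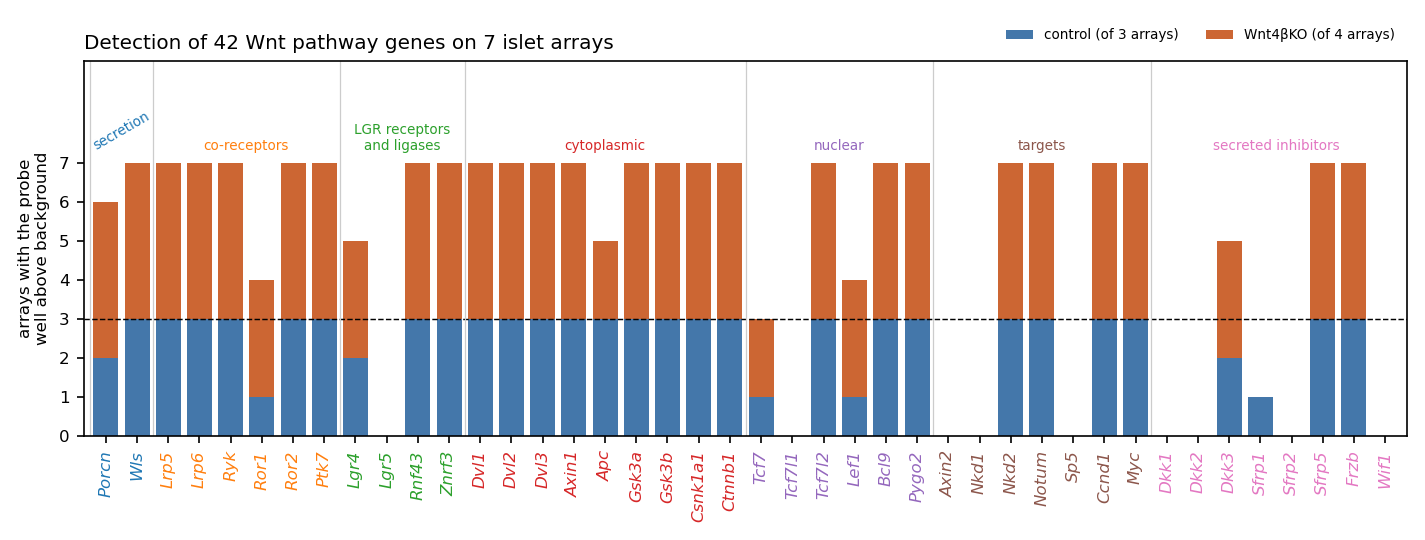
Number of arrays on which the brightest probe of each of the 42 genes was well above background (vertical axis, arrays), with the 3 control arrays in blue and the 4 Wnt4βKO arrays in orange, and gene names coloured by role. The dashed line marks the 3 arrays needed for testing; 25 bars reach all 7 arrays, 9 are empty, and the empty ones include Axin2, Nkd1, Sp5 and Lgr5.

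Of the 32 tested genes, 25 were well above background on all 7 arrays. The other 7 were close to the limit: Porcn was well above background on 6 arrays, Lgr4, Apc and Dkk3 on 5, Ror1 and Lef1 on 4 and Tcf7 on 3. The offset of 50 added in background correction draws the signals of such dim probes together, so that their log2 differences are understated. Groups were uneven for Lef1, called on 1 of 3 control and 3 of 4 Wnt4βKO arrays, and for Ror1, with the same counts. Apc went the other way, with 3 of 3 control and 2 of 4 Wnt4βKO arrays.

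Over the 32 genes, 18 differences between Wnt4βKO and control were positive and 14 negative, with a median of 0.021 on the log2 scale, against 0.0027 over all tested probes and 0.0076 over the brightest probes of all 13648 tested genes. Differences ran from -0.52 for Lrp6 to 0.40 for Lef1, and 24 of the 32 were under 0.2 in size. At an unadjusted limma p under 0.05, 2 of the 32 genes passed, Gsk3a, which was higher in Wnt4βKO islets, and Myc, which was lower; 6.96% of all tested probes passed, 3.33% higher and 3.63% lower. Adjusted p-values of the 32 ran from 0.670 to 0.997, so no gene passed after Benjamini-Hochberg adjustment over all tested probes, where 4 probes, or 0.0153%, did. Groups did not overlap for 1 of the 32, Gsk3a, against 7.21% of all tested probes. Among the brightest probes of all 13648 tested genes, 617 were higher and 604 lower at an unadjusted p under 0.05, and groups did not overlap for 1136. The counts of members lie near or below the shares of all probes and of all genes.

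The precision of the differences was similar to that of other genes. The pooled SD within groups had a median of 0.189 over the 32 genes, against 0.183 over all tested genes. The 95% interval of the difference reached a median of 0.311 to either side. It lay wholly between -0.5 and 0.5 for 17 genes and between -1 and 1 for 31, the exception being Lrp6. On the scale that the offset compresses, a halving or a doubling was thus outside the interval for 31 genes. For dim genes this sets no bound on the change in transcript: the Lef1 difference reached 2.10 among the alternatives run. Smaller differences of most genes were not resolved with 3 and 4 arrays.

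**Figure D2:**
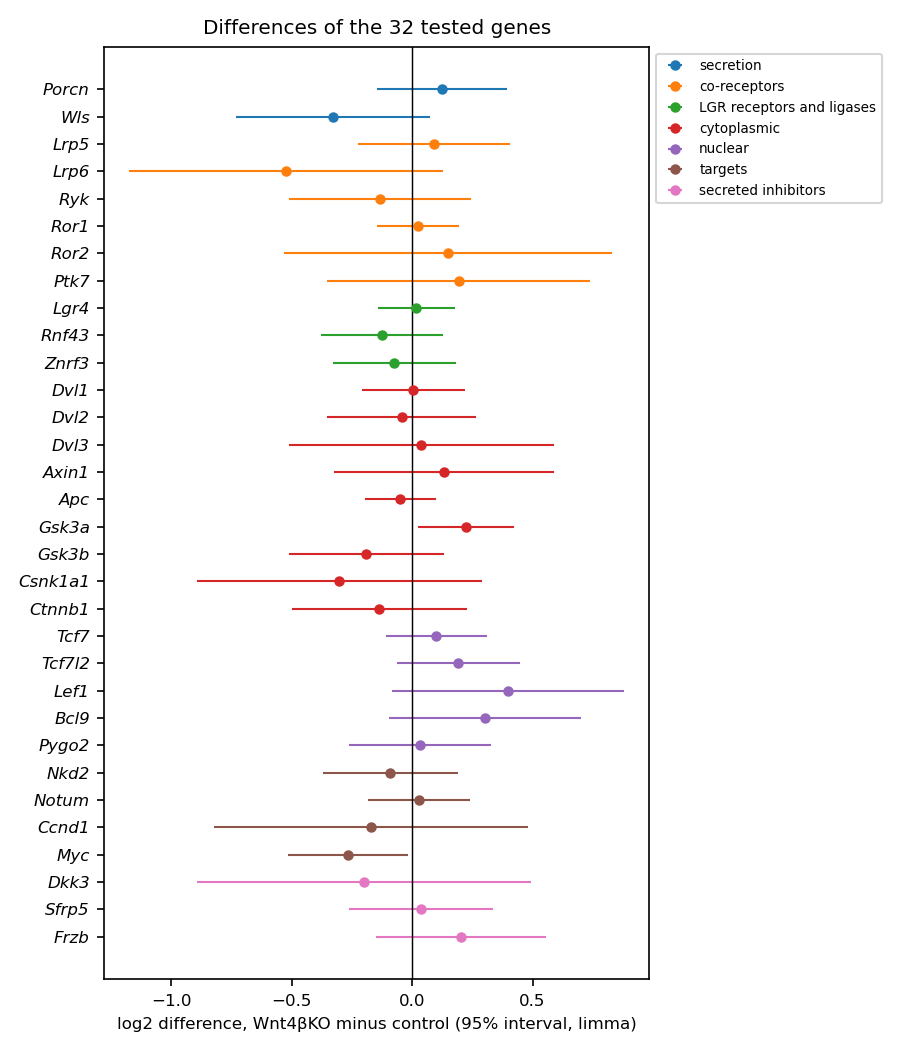
Log2 difference, Wnt4βKO minus control, of each of the 32 tested genes (points) with its 95% interval from limma (bars), ordered and coloured by role. The intervals of Gsk3a and Myc exclude 0 before adjustment for the number of probes, and those of all other genes include it; the 5 nuclear factors all lie to the right of 0.

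**Figure D3:**
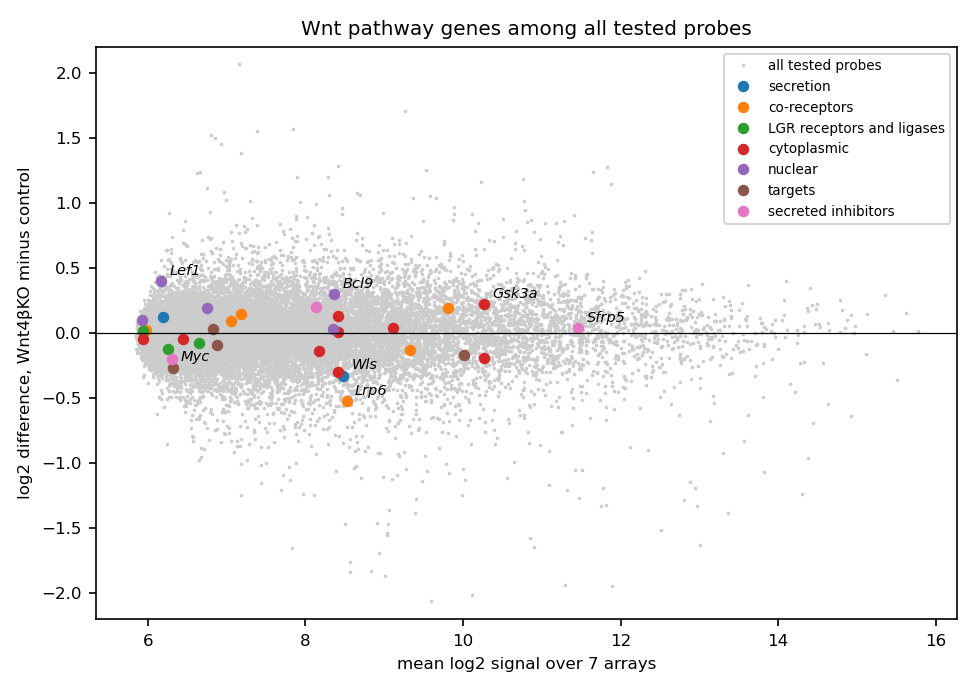
Log2 difference, Wnt4βKO minus control, against the mean log2 signal over 7 arrays, for all tested probes (grey) and the 32 Wnt pathway genes (coloured by role); 3 grey probes lie beyond the vertical limits of 2.2. The coloured points lie within the cloud of grey ones, between -0.52 and 0.40.

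Neither secretion gene passed an unadjusted p of 0.05, and the arrays of both groups overlapped for each. Wls carries lipid-modified Wnt proteins to the cell surface. Its log2 signal was 8.82, 8.29 and 8.89 in control and 8.18, 8.35, 8.22 and 8.61 in Wnt4βKO islets. Control replicate 3 was as low as the lower Wnt4βKO arrays, so the groups overlapped. The difference was -0.33 ± 0.17 (SE; unadjusted limma p of 0.0958, adjusted 0.769), and a second, separate probe gave -0.35 with an unadjusted p of 0.324. Without control replicate 3 the Wls difference was -0.52 (unadjusted 0.00872, adjusted 0.672), and without Wnt4βKO replicate 4 it was -0.42 (0.0453, adjusted 0.877). Leaving out control replicate 4 moved it the other way, to -0.22 (0.289). Porcn, which attaches the lipid to Wnt proteins, differed by 0.12 (unadjusted 0.313), and had an unadjusted p under 0.05 only without control replicate 3 among the alternatives run.

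Among the receptors, the canonical co-receptors Lrp5 and Lrp6 had differences of 0.09 and -0.52, with unadjusted limma p-values of 0.518 and 0.0992. Lrp6 was 9.15, 8.43 and 8.89 in control islets. In Wnt4βKO islets it was 7.72, 8.21, 8.42 and 8.85. Wnt4βKO replicate 1 was the lowest array and replicate 4 was within the control range, and the 95% interval ran from -1.18 to 0.13. Its dimmer probe gave -0.13 with an unadjusted p of 0.169. Leaving out 1 array took the unadjusted p of Lrp6 below 0.05 in 2 cases, to 0.0482 for control replicate 3 and 0.0263 for Wnt4βKO replicate 4 (differences -0.72 and -0.71), as did median scaling of the arrays (0.0108). The difference shrank to -0.33 (0.204) when Wnt4βKO replicate 1 was left out, to -0.36 (0.290) when control replicate 2 was, and to -0.20 (0.632) with the acinar mean as a covariate.

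The alternative receptors Ryk, Ror1, Ror2 and Ptk7, which serve β-catenin-independent branches, differed by between -0.13 and 0.19, with none at an unadjusted p under 0.05. Ror2 varied most within groups, with a pooled SD of 0.452. It was 7.00, 7.68 and 6.60 in control and 7.62, 7.42, 7.17 and 6.76 in Wnt4βKO islets. The highest array of all was a control and so was the lowest, and without control replicate 4 the difference of 0.15 became -0.10.

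Of the R-spondin receptors and the ligases they control, Lgr4 differed by 0.02, at a signal close to background. Rnf43 and Znrf3, ubiquitin ligases that remove Frizzled from the membrane and are themselves β-catenin targets, were well above background on every array. Rnf43 was 6.17, 6.34 and 6.47 in control and 6.25, 6.36, 6.04 and 6.16 in Wnt4βKO islets, a difference of -0.13 ± 0.11 (SE; unadjusted limma p of 0.280). Znrf3 was 6.66, 6.55 and 6.85 in control and 6.75, 6.69, 6.43 and 6.58 in Wnt4βKO islets, a difference of -0.07 ± 0.11 (SE; unadjusted 0.520). For both, arrays of the groups were interleaved.

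Among the cytoplasmic components, 4 differences were positive and 5 negative, and Gsk3a had the one unadjusted p under 0.05. Gsk3a encodes one of the paired kinases that phosphorylate β-catenin and, as the name says, glycogen synthase. It was 10.06, 10.05 and 10.31 in control and 10.40, 10.35, 10.36 and 10.35 in Wnt4βKO islets. All 4 Wnt4βKO arrays were above all 3 controls, by a margin that was narrow for control replicate 4. The difference was 0.22 ± 0.08 (SE), a fold of 1.17 (95% interval 1.02 to 1.34), with an unadjusted limma p of 0.0317 and an adjusted p of 0.670.

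The Gsk3a difference kept its sign in all 21 alternatives, and in 15 of them its unadjusted p was above 0.05. Leaving out any array but control replicate 4 took it above 0.05: the p was 0.103 and 0.105 for control replicates 2 and 3, and 0.0652, 0.0558, 0.0609 and 0.0537 for Wnt4βKO replicates 1, 2, 3 and 4. With the trended and robust variance it was 0.172. Its dimmer probe, called on 3 arrays, gave 0.06 with an unadjusted p of 0.473. The arrays lay in 2 rows of 1 slide, and the difference was 0.06 in the row with 1 control and 2 Wnt4βKO arrays and 0.30 in the row with 2 of each.

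Gsk3b, the paralogue, had a difference of -0.19 (unadjusted limma p of 0.206), with further probes at -0.09 and 0.07. Axin1, the scaffold, differed by 0.13, and Apc, the other scaffold, by -0.05 at a signal near background. Csnk1a1, the casein kinase that primes β-catenin, had the largest spread of this role. It was 8.76, 8.89 and 8.10 in control and 8.36, 8.72, 8.22 and 7.82 in Wnt4βKO islets, a difference of -0.30 ± 0.25 (SE; unadjusted 0.268). The ranges of the groups overlapped, and a second probe gave -0.06. Leaving out 1 array moved the difference to between -0.54 (control replicate 4) and -0.15 (control replicate 3 or Wnt4βKO replicate 4), and the acinar covariate to -0.06.

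Ctnnb1, which encodes β-catenin, was 7.996, 8.28 and 8.48 in control islets. In Wnt4βKO islets it was 8.003, 7.95, 8.43 and 8.09, so that the groups overlapped over most of their range. The difference was -0.14 ± 0.16 (SE; unadjusted limma p of 0.407), with -0.11 for its other probe. It was -0.02 when control replicate 4 was left out and -0.26 when control replicate 2 was. This is a transcript level, and β-catenin is regulated mainly through the stability of the protein, which the array does not measure.

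Of the Dishevelled genes, which relay the signal from Frizzled, Dvl1 differed by 0.01, Dvl2 by -0.04 and Dvl3 by 0.04. Dvl3 had a dimmer probe (A_51_P480209) that did not follow the brighter one. On that probe Dvl3 was 6.25, 6.28 and 6.33 in control and 6.09, 6.14, 6.08 and 6.12 in Wnt4βKO islets. Every Wnt4βKO array was below every control, with a difference of -0.18 ± 0.06 (SE; unadjusted limma p of 0.0250, adjusted 0.661), and leaving out control replicate 3 or 4 or Wnt4βKO replicate 3 took the unadjusted p to 0.0526, 0.0802 and 0.0633. The brighter probe had a pooled SD of 0.360, and its interval of -0.51 to 0.59 contains the difference of the dimmer one. Of the 16 members with more than 1 tested probe, all probes had 1 sign in 10 and both signs in 6.

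The nuclear factors all had positive differences, 5 of 5, with a median of 0.19 and none at an unadjusted p under 0.05; that of Pygo2 turned negative in some alternatives, reaching -0.04. The mean over the 5 genes was 6.93 to 7.05 on control arrays and 7.09 to 7.36 on Wnt4βKO arrays. These array means did not overlap, whereas those of each other role did. Of all 13648 tested genes, 7122 had positive differences. Lef1, called on 1 control and 3 Wnt4βKO arrays, and Tcf7, on 1 and 2, passed the filter only with their Wnt4βKO arrays, where they were higher. The separation is therefore a description only and no support for a difference. The gap between the highest control and the lowest Wnt4βKO mean was 0.0447 on the log2 scale, and the means overlapped with offset 0, with the processed signal of the scanner software, with median scaling and with only probes well above background on all 7 arrays.

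Lef1, a Tcf family factor that is also a β-catenin target, had the most positive difference on the list. It was 5.85, 6.20 and 5.77 in control and 5.92, 6.54, 6.71 and 6.18 in Wnt4βKO islets. Wnt4βKO replicates 2 and 3 were above every control, and replicates 1 and 4 were within the control range. The difference was 0.40 ± 0.21 (SE; unadjusted limma p of 0.0920, adjusted 0.764). With offset 0, which does not compress dim signals, it was 1.58 (unadjusted 0.0345, adjusted 0.747), and without Wnt4βKO replicate 1 it was 0.54 (0.0209, adjusted 0.796). With the acinar mean as a covariate, a fit that cannot part that mean from genotype, it was 0.83 (0.0083, adjusted p close to 1). The unadjusted limma p of Lef1 was under 0.05 in 4 of 20 alternatives and reached 0.237. Over these alternatives the difference ran from 0.27 to 2.10. Within the slide rows it was 0.46 and 0.42. Lef1 passed the filter only with its Wnt4βKO arrays, so these values are a description and no support for a difference.

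Lef1 and Tcf7 are also expressed in T cells, and markers of immune cells varied between the arrays. Cd3e was 8.96, 8.69 and 8.35 in control and 8.81, 8.05, 9.59 and 9.36 in Wnt4βKO islets. Wnt4βKO replicate 3 had the highest Cd3e and the highest Lef1 of all arrays, and Wnt4βKO replicate 2 the lowest Cd3e and the second highest Lef1. The mean of 8 tested immune markers was 7.80 to 7.99 in control and 7.72 to 8.69 in Wnt4βKO islets, with 7 of the 8 higher and none past an unadjusted p of 0.05, and Cd79a and Lyz2 did not pass the filter. Their part in the Lef1 difference was not tested.

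Tcf7l2 was 6.70, 6.42 and 6.82 in control and 6.85, 6.83, 6.72 and 6.94 in Wnt4βKO islets. Only Wnt4βKO replicate 3 fell below the highest control. The difference was 0.19 ± 0.11 (SE; unadjusted limma p of 0.120, adjusted 0.788), and the other tested probes gave 0.26 and 0.02. Without control replicate 4 the difference was 0.28 (unadjusted 0.0443), and without control replicate 3 it was 0.08 (0.421). Within slide rows the difference was 0.02 in the row that holds control replicate 4 and 0.27 in the row that holds control replicates 2 and 3.

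Tcf7, which was near background, was 5.86, 5.95 and 5.79 in control and 5.83, 6.06, 6.08 and 5.92 in Wnt4βKO islets, a difference of 0.10 ± 0.09 (SE; unadjusted limma p of 0.293). Bcl9 and Pygo2 encode partners that tie β-catenin to chromatin. Bcl9 differed by 0.30 (unadjusted 0.118, and under 0.05 only without Wnt4βKO replicate 4 among the alternatives run), with Wnt4βKO replicates 1, 2 and 3 above every control. Pygo2 differed by 0.03.

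**Figure D4:**
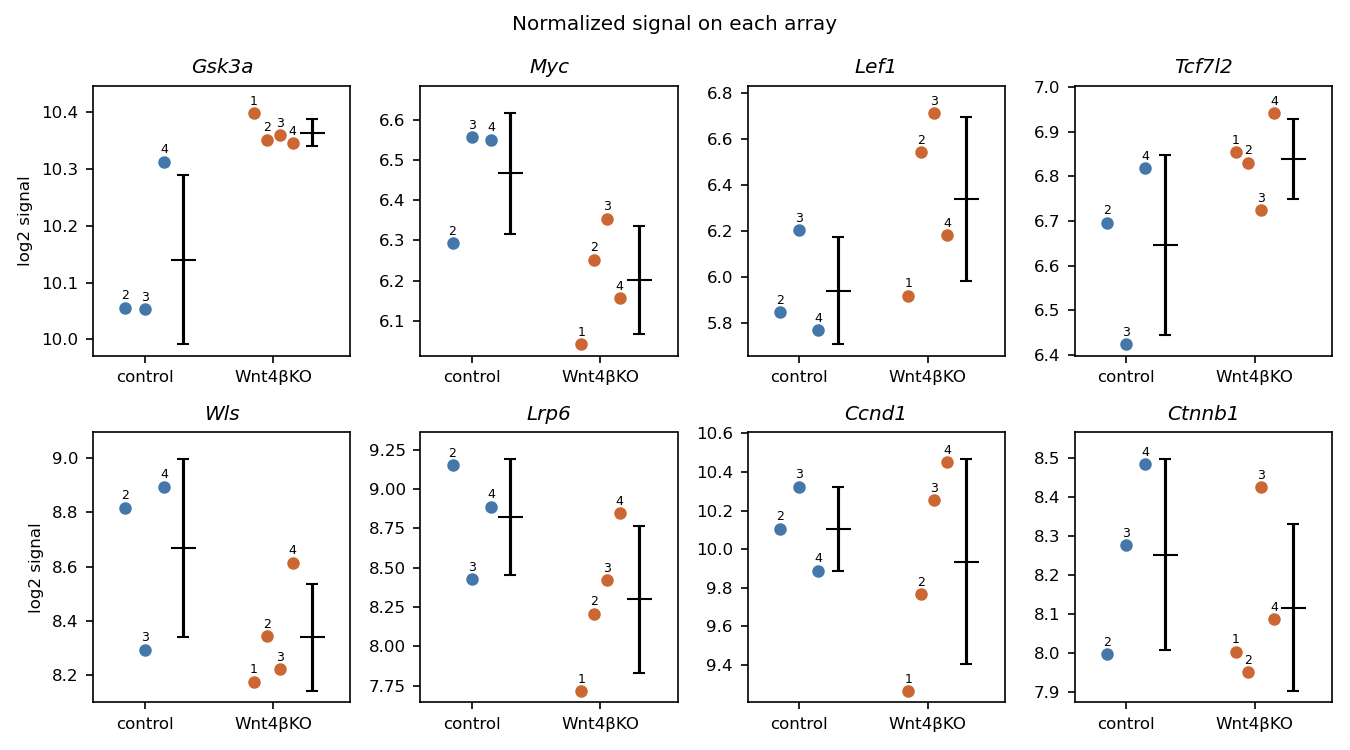
Normalized log2 signal (vertical axes, separate range in each panel, not starting at 0) of 8 genes on each control (blue) and Wnt4βKO (orange) array, numbered by replicate, with the group mean and SD in black. All Wnt4βKO points of Gsk3a lie above all controls, and in the other 7 panels the groups overlap.

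Among the targets, Myc was the one gene with an unadjusted p under 0.05. Myc, a growth-promoting transcription factor with many inputs besides β-catenin, was 6.29, 6.56 and 6.55 in control islets. In Wnt4βKO islets it was 6.04, 6.25, 6.35 and 6.16. Control replicate 2 fell within the Wnt4βKO range, so the groups overlapped. The difference was -0.27 ± 0.11 (SE), or 83.1% of control (unadjusted limma p of 0.0394, adjusted 0.691), and the dimmer probe gave -0.07 (0.342).

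The Myc difference was negative in all 21 alternatives and lost its unadjusted call in 10. It was -0.72 with offset 0 (unadjusted 0.0282). With the acinar mean as a covariate it was -0.15 (0.355). The acinar mean was lower on every Wnt4βKO array, so that fit cannot part it from genotype, and a lost call there says little about Myc. Leaving out control replicate 3 or 4 took the unadjusted p to 0.121 and 0.119, and leaving out Wnt4βKO replicate 1, 2 or 4 to 0.0884, 0.0559 and 0.0814. Within the slide rows the difference was -0.40 and -0.17.

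Ccnd1, the G1 cyclin, was 10.11, 10.32 and 9.89 in control and 9.27, 9.77, 10.25 and 10.45 in Wnt4βKO islets. The Wnt4βKO arrays included both the lowest and the highest of the 7. The difference was -0.17 ± 0.28 (SE; unadjusted limma p of 0.558), and 0.05 without Wnt4βKO replicate 1. Mean signals of mesenchymal, endothelial, immune and Schwann cell markers all ran in the same order over the Wnt4βKO arrays. Those of 9 mesenchymal genes were 6.78, 7.64, 7.91 and 8.19. On the control arrays they were 7.05, 7.82 and 8.23, where control replicate 4 had the highest mesenchymal mean and the lowest Ccnd1. The part of any of these cells in the spread of Ccnd1 was not tested.

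Both feedback regulators among the tested targets had intervals that include 0. Notum, an enzyme that strips the lipid from Wnt proteins, was 6.83, 6.84 and 6.77 in control and 6.97, 6.71, 6.73 and 6.94 in Wnt4βKO islets, a difference of 0.03 ± 0.09 (SE), with a 95% interval of -0.18 to 0.24. Nkd2, which binds Dishevelled, was 6.95, 6.99 and 6.84 in control and 6.81, 7.13, 6.66 and 6.75 in Wnt4βKO islets, a difference of -0.09 ± 0.12 (SE), with an interval of -0.37 to 0.19. Over the 8 tested readouts of β-catenin activity, 3 differences were positive and 5 negative, with a median of -0.082. Lef1 and Tcf7, both among the positive ones, passed the filter only with their Wnt4βKO arrays. The count and the median are therefore a description only.

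Of the secreted inhibitors, the soluble Frizzled-related proteins Sfrp5 and Frzb and the Dickkopf family member Dkk3 were tested. Sfrp5 gave a bright signal, 11.15 to 11.68 on control and 11.41 to 11.60 on Wnt4βKO arrays, with a difference of 0.04 ± 0.13 (SE; unadjusted limma p of 0.787). Frzb differed by 0.20 (0.222) on its brightest probe, which became 0.04 when control replicate 2 was left out, and by 0.44 (0.258) on the other.

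Dkk3 varied most of all 32 genes, with a pooled SD of 0.461. It was 5.95, 6.42 and 6.91 in control and 5.84, 6.87, 6.07 and 6.13 in Wnt4βKO islets. Each group held arrays near the floor and arrays about 1 log2 unit above it. The difference was -0.20 ± 0.30 (SE; unadjusted 0.521), and 0.044 without control replicate 4. The 2 arrays with the lowest Dkk3, control replicate 2 and Wnt4βKO replicate 1, also had the lowest mesenchymal and endothelial means. Wnt4βKO replicates 3 and 4 had low Dkk3 too, at mesenchymal means of 7.91 and 8.19. A link with these cells was not tested.

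Further genes of the pathway were taken from a separate list of 112 that holds other extracellular modulators, cytoplasmic and nuclear regulators, further targets and the Wnt-calcium branch. Of these, 110 were on the array and 84 tested, of which 5 were higher and 3 lower at an unadjusted limma p under 0.05, and none passed after adjustment. That is 8 of 84, where 6.96% of all tested probes passed. At 1 brightest probe per gene, as for these 84, 617 of all 13648 tested genes were higher and 604 lower. The median difference was 0.029. Groups did not overlap for 5 of the 84, against 7.21% of all tested probes and 1136 of the 13648 genes. Both counts lie near or below the share of all tested genes.

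Among the higher genes were Nfatc1 (0.34, unadjusted 0.00216), a calcium-responsive transcription factor, Cd44 (0.27, 0.00917) and Ccnd3 (0.26, 0.0261), listed as targets, and Ctnnbip1 (0.50, 0.0480), which blocks binding of β-catenin to Tcf factors. The lower genes were Sostdc1 (-0.63, 0.00677), a secreted antagonist of Wnt and BMP signalling, Fbxw11 (-0.32, 0.0390), a subunit of the ligase that ubiquitylates phosphorylated β-catenin, and Plcb4 (-0.24, 0.0477), a phospholipase of the calcium branch. Adjusted p-values of the genes named here ran from 0.494 to 0.711.

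Nfatc1 was 6.73, 6.69 and 6.63 in control and 7.13, 7.02, 7.02 and 6.93 in Wnt4βKO islets, with every Wnt4βKO array above every control. Sostdc1 was 7.00, 6.95 and 7.11 in control and 5.93, 6.60, 6.57 and 6.48 in Wnt4βKO islets, with every Wnt4βKO array below every control and replicate 1 the lowest.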

How the data were processed

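Islet RNA (50 ng per mouse) was labelled with Cy3 and hybridised to 1-colour Agilent mouse arrays. The authors deposited the scanner output of each array as spot intensity values, from Feature Extraction (12.0.1.1 in the file headers and 9.1 in the submitters' processing notes). Median foreground and local background intensities were corrected by normexp with an offset of 50, quantile normalized as log2 values and averaged per probe in limma 3.58.1 under R 4.3.3, leaving out control spots and spots marked as outliers. This left 65 missing values among tested probes. On each array 45.5% to 48.9% of spots were well above background; the number of arrays limits the precision. Probes with that call on 3 or more of 7 arrays were fitted by lmFit and eBayes, Wnt4βKO minus control, two-sided, with Benjamini-Hochberg adjustment. Nothing says whether arrays of a group share litters.

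Probes were named by accession through RefSeq (GRCm38.p6), which named 32994, or 58.3%. Values on every array are given for tested genes with an unadjusted p under 0.05 or groups that do not overlap, for the tested readouts of β-catenin activity, Tcf7l2, Ctnnb1 and the most variable gene of each role, and at most 8 other pathway genes are named by p, with arrays shown for the lowest p in each direction. One of these results is not reported here. Lrp6 and the Cd3e marker were added after their values were seen. The members and lists were chosen with earlier results of these data known. The deposited value table of log2 values was not used, because the same-sample correlation of deviations with the scanner files was between -0.206 and 0.146 over 15376 probes. Alternatives covered background, normalization, filter, variance model, array weights, block, probe averaging, an acinar covariate and leaving out each array. The fit was tested on simulated data.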

Additional observations from a re-analysis of the deposited data

Results flagged for a closer look

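The 4 Wnt4βKO arrays were examined for one far from the others in each of 32 genes, and 2 genes had one, where about 1 in 20 groups of 4 would by chance. The 3 control arrays are too few for this and were not examined. For Bcl9 this was Wnt4βKO replicate 4 at 8.07, while replicates 1, 2 and 3 lay from 8.60 to 8.68, so that the gap was 0.866 of the range. For Ror1 it was Wnt4βKO replicate 1 at 6.06, with replicates 2, 3 and 4 from 5.96 to 5.97, a gap of 0.887 of a range that is itself small, since the probe is close to the floor.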

How the results depend on the processing

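Over 21 alternatives, no member passed the adjusted threshold in any, and the median difference of the β-catenin readouts stayed negative, between -0.159 and -0.0121. That median is a description only, since with the main filter Lef1 and Tcf7 entered it through their Wnt4βKO arrays. The median of all members was 0.0886 with the processed signal, where that of all probes was 0.0294. Members past an unadjusted 0.05 numbered 1 with no background correction, processed signal, cyclic loess, trended variance, the replicate block, the acinar covariate and the slide row as a block (the last chosen after seeing the data), 0 with probes of a gene averaged, and 0 to 3 with 1 array left out. Members whose groups did not overlap numbered 2 with the processed signal, median scaling and averaged probes, and 1 to 5 with 1 array left out. Of the 32 differences, 18 turned sign in at least 1 alternative, all under 0.2 in size on all arrays with the main settings and none past an unadjusted 0.05 in any alternative. Axin1 ran from -0.285 to 0.260, Ptk7 from -0.323 to 0.403, Dvl3 from -0.189 to 0.298, Gsk3b from -0.296 to 0.0997, Ryk from -0.229 to 0.128 and Sfrp5 from -0.111 to 0.162, and Dvl1, Dvl2, Lgr4, Lrp5, Pygo2 and Ror1 turned too. Ccnd1 was 0.0515 with the replicate block and 0.149 with the acinar covariate (-0.344 to 0.0515 leaving out 1 array); Notum -0.0189 with median scaling, -0.0176 with the block and -0.143 with the covariate (-0.0176 to 0.0703 leaving out 1 array); Ror2 -0.0134 with array weights (-0.1005 to 0.443); Znrf3 0.0026 with averaged probes (-0.141 to 0.0075); Dkk3 0.115 with the covariate (-0.439 to 0.0440) and Nkd2 0.0200 with the covariate. The cause was not tested. Replicate numbers did not pair the samples (r of deviations -0.131, 0.229 and -0.0069), and the replicate block, which drops Wnt4βKO replicate 1 for want of a partner, gave Lef1 0.54 (unadjusted 0.00395, adjusted 0.807). The slide and scan as a block and the deposited value table were not run: all arrays share 1 slide and 1 scan, and the table did not follow the arrays.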
